A study of Mus musculus with 10 samples.

Results

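The genes described here are 10 genes of the photoreceptor ribbon synapse, out of 11702 genes in the count table. They were chosen by name for their known roles, with earlier results of these data known. All 10 were in the table and all 10 passed the filter on low counts in each comparison. They are Cacna1f, Cacna2d4 and Cabp4 of the presynaptic calcium channel, Egflam, Elfn1 and Lrit1 of the contact with the bipolar cell, and Cplx3, Cplx4, Slc17a7 and Rims2 of the release machinery. Polyadenylated RNA was sequenced from 10 retinas of female mice collected at postnatal day 36. The mice had received 1 µL of DMSO or of 20 µM halofantrine (HAL) into the vitreous at postnatal days 10 and 24. The groups were WT DMSO (4 libraries, W1 to W4), rd10 DMSO (3 libraries, D1 to D3) and rd10 HAL (3 libraries, H1 to H3). The rd10 mice were B6.CXB1-Pde6brd10/J, which carry a recessive mutation of the rod phosphodiesterase gene Pde6b and lose rods after birth; the strain of the WT mice is not given in the labels used here. By the labels, batch 2 consisted of D3, H2 and H3, and the other 7 libraries, WT included, made up batch 1. What the batches were is not said. The sample titles also carry set names, of which W1 to W3 share one and W4 has one of its own, D1, D2 and H1 share one, H2 and H3 share one, and D3 has one of its own. Genotype within batch 1 and treatment within batch 2 therefore cannot be told apart from these sets.

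Photoreceptors release glutamate continuously in darkness from a terminal in which a ribbon holds vesicles beside voltage-gated calcium channels. Light closes the channels of the outer segment, the cell hyperpolarises, calcium entry falls and release slows. Dendrites of ON bipolar cells and horizontal cells reach into the terminal, and proteins that span the cleft hold the bipolar receptor complex opposite the ribbon. Loss of several of these genes in humans or mice impairs transmission from photoreceptors while leaving the outer segment response largely in place.

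Libraries held between 15512212 and 38160436 counts, and the lowest count of any of the 10 genes in any library was 355. Markers of the retina were present throughout, with a mean log2 CPM of 6.87 to 7.91 for 10 bipolar markers and 7.77 to 8.77 for 6 Muller glia markers. One library went against its label. Pde6b measured 2699, 2850, 2855 and 93.1 CPM (counts per 1000000 of each library's total after normalization) in W1 to W4, 133, 157 and 387 in D1 to D3, and 125, 373 and 249 in H1 to H3. The mean log2 CPM of 19 rod outer segment genes was 11.16 to 11.24 in W1 to W3, 7.11 in W4 and 7.39 to 8.63 in the rd10 libraries. The library labelled WT W4 was kept in the group its label gives, and each comparison with WT is given with and without it. In bulk retina, fewer cells of a type and less RNA per cell cannot be told apart. The labels do not say that libraries of a group came from separate mice, so the p-values measure only the spread between these libraries, which may be technical.

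Across the 10 genes, 9 were lower in rd10 retina than in W1 to W3, by 1.82-fold to 6.60-fold with DMSO, and Cplx3 was higher. The library labelled WT W4 stood below all 6 rd10 libraries for 5 of the 10 (Cabp4, Egflam, Lrit1, Cplx4 and Slc17a7) and inside their range for the other 5. Levels below are CPM after normalization of the libraries by trimmed mean of M values, and fold changes and p-values come from edgeR's quasi-likelihood test with Benjamini-Hochberg adjustment over all genes tested.

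**Figure D1:**
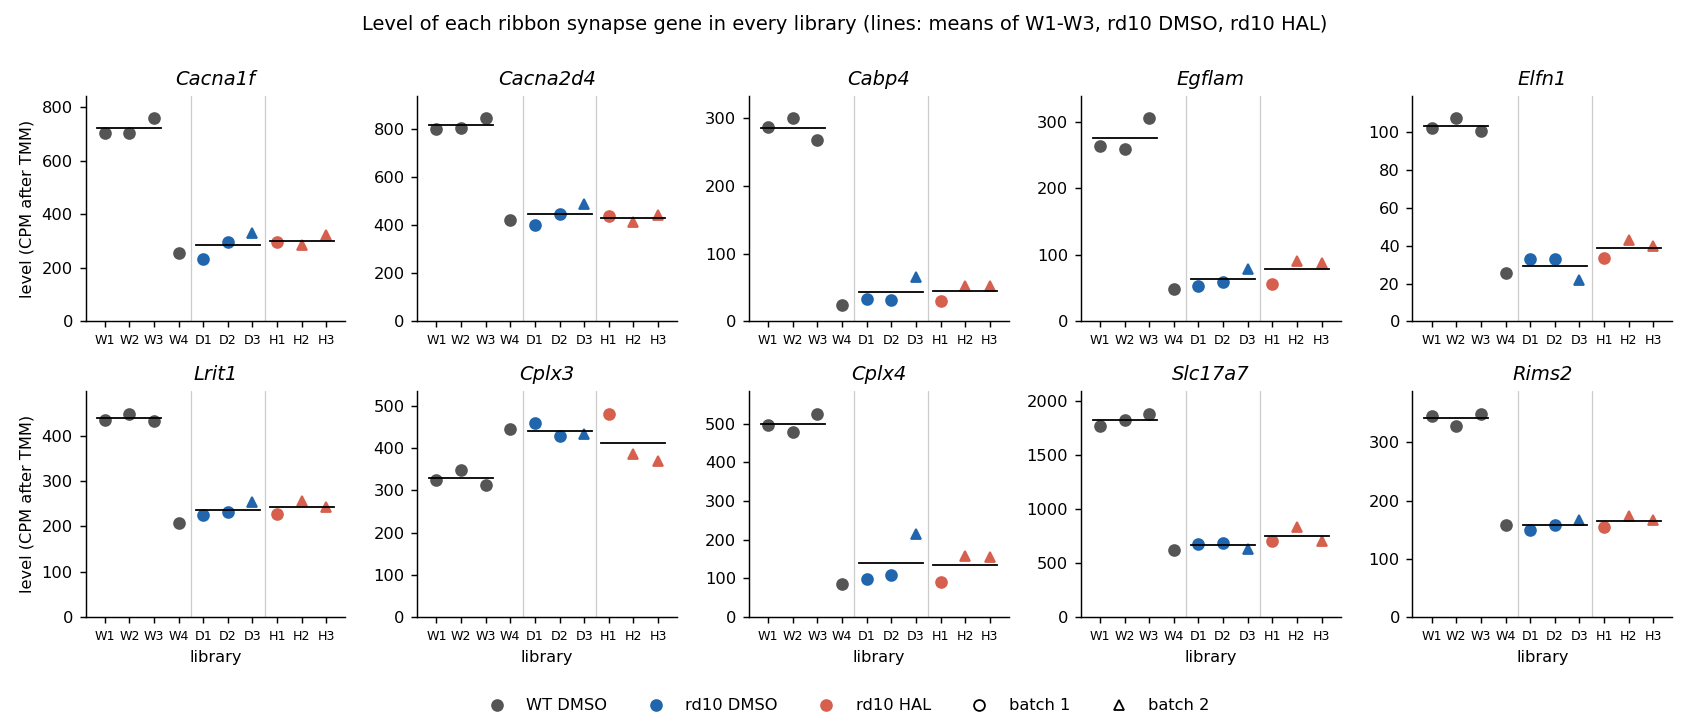
Level of each of the 10 genes in every library (vertical axis, CPM after normalization, linear and starting at 0; horizontal axis, library). Circles are batch 1 and triangles batch 2; black lines are the means of W1 to W3, of rd10 DMSO and of rd10 HAL. W1 to W3 lie above all 6 rd10 libraries in 9 panels and below them for Cplx3, and W4 lies away from W1 to W3 in each panel.

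Cacna1f encodes the pore of the L-type channel that admits calcium at the photoreceptor ribbon. It measured 703, 704, 759.9 and 254 CPM in W1 to W4, 235, 297 and 331 in D1 to D3, and 296, 285 and 324 in H1 to H3. The lowest of W1 to W3 was over every rd10 library, and W4 lay inside the rd10 range. Cacna2d4, the accessory subunit that brings the channel to the terminal, measured 799, 803, 845 and 422 CPM in WT, 399, 447 and 489 in rd10 DMSO, and 439, 413 and 442 in rd10 HAL. Cabp4 encodes a calcium-binding protein that shifts the channel's activation to the voltages at which photoreceptors work. Its levels were 286, 299, 268 and 23.6 CPM in W1 to W4, 32.7, 31.7 and 65.3 in D1 to D3, and 30.7, 51.8 and 51.6 in H1 to H3. Of the 3 channel genes Cabp4 was the lowest in rd10 relative to W1 to W3, at 15.2% of their mean with DMSO, against 39.8% for Cacna1f and 54.6% for Cacna2d4.

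Egflam encodes pikachurin, the matrix protein that links the terminal to the bipolar dendrite. Its values were 263, 259, 305 and 48.0 CPM in W1 to W4, 52.8, 59.8 and 78.7 in D1 to D3, and 55.9, 90.1 and 88.0 in H1 to H3. Elfn1, the adhesion protein by which rods recruit the bipolar receptor mGluR6, measured 102, 108, 101 and 25.9 CPM in WT, 33.0, 33.2 and 21.8 in rd10 DMSO, and 33.8, 43.2 and 40.0 in rd10 HAL. Its lowest library was D3, and all 3 HAL libraries were above all 3 DMSO libraries. Lrit1 encodes a leucine-rich repeat protein of the photoreceptor terminal. It measured 436, 449, 433 and 207 CPM in W1 to W4, 226, 233 and 253 in D1 to D3, and 228, 255 and 244 in H1 to H3, so that rd10 DMSO retained 54.0% of the mean of W1 to W3, against 23.1% for Egflam and 28.4% for Elfn1.

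Cplx4 and Cplx3 encode the complexins of retinal ribbon synapses, which bind the SNARE complex and restrain spontaneous release. Cplx4, known from rods above all, measured 496, 477, 525 and 86.2 CPM in W1 to W4, 98.8, 109 and 213 in D1 to D3, and 90.0, 157 and 154 in H1 to H3. Cplx3, which is also present in amacrine and bipolar cells, went the other way. It measured 325, 348, 313 and 445 CPM in WT, 458, 429.7 and 434 in rd10 DMSO, and 481, 385 and 369 in rd10 HAL. The 6 rd10 libraries were all above W1 to W3 for Cplx3, and rd10 DMSO stood at 134% of their mean, against 28.1% for Cplx4.

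Slc17a7 encodes VGLUT1, which loads glutamate into the vesicles of photoreceptors and bipolar cells. Its levels were 1772, 1822, 1882 and 619 CPM in W1 to W4, 673, 686 and 627 in D1 to D3, and 702, 829 and 708 in H1 to H3. Rims2 encodes an active-zone scaffold that supports calcium channels at the ribbon, and its levels were 346, 328, 349 and 158 CPM in WT, 149, 158 and 166 in rd10 DMSO, and 155, 173 and 166 in rd10 HAL. Both lay below W1 to W3 in every rd10 library, at 36.3% of the mean of W1 to W3 for Slc17a7 and 46.3% for Rims2 with DMSO. Non-overlap of this kind was common in the table, since 32.3% of all genes had W1 to W3 above all 6 rd10 libraries and 31.4% had them below.

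The comparison of rd10 DMSO with WT DMSO asks how degenerating retina differs from WT retina when both were injected with vehicle. Without the library labelled WT W4, all 10 genes passed the test, 9 lower and Cplx3 higher, where 29.9% of 11696 genes tested were called lower and 32.3% higher. Cabp4 fell by 2.72 on the log2 scale, the most of the 10 (SE 0.28, adjusted p = 0.00015), followed by Egflam (-2.10, SE 0.15), Cplx4 (-1.82, SE 0.28) and Elfn1 (-1.80, SE 0.15). Slc17a7 fell by 1.45 (SE 0.07), Cacna1f by 1.32 (SE 0.13), Rims2 by 1.10 (SE 0.07), Lrit1 by 0.88 (SE 0.07) and Cacna2d4 by 0.86 (SE 0.09). Cplx3 rose by 0.43 (SE 0.07, adjusted p = 0.0011), and the adjusted p of the 9 that fell ran from 1.6e-05 to 0.00096. The median of the 10 was -1.39, beside -0.01 over all genes tested. With batch 1 libraries alone and W4 left out, all 10 kept their direction and passed the test, Cabp4 falling by 3.14 and Cplx4 by 2.26, where 35.9% of 11698 genes were called lower and 36.5% higher.

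With all 4 libraries labelled WT, none of the 10 genes passed the test, as for the whole table, in which 0% of 11698 genes were called lower and 0% higher. The same 9 genes were negative, from -0.68 for Lrit1 to -2.34 for Cabp4, and Cplx3 was at 0.30, with edgeR adjusted p-values of 0.187 to 0.192. At an unadjusted p under 0.05 there were 9 of the 10 genes and 3108 genes in all, and DESeq2 called 5 of the 10, all lower, and 589 genes (4.26% lower and 0.778% higher). The SE of Cabp4 was 0.81 with W4 and 0.28 without it.

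**Figure D2:**
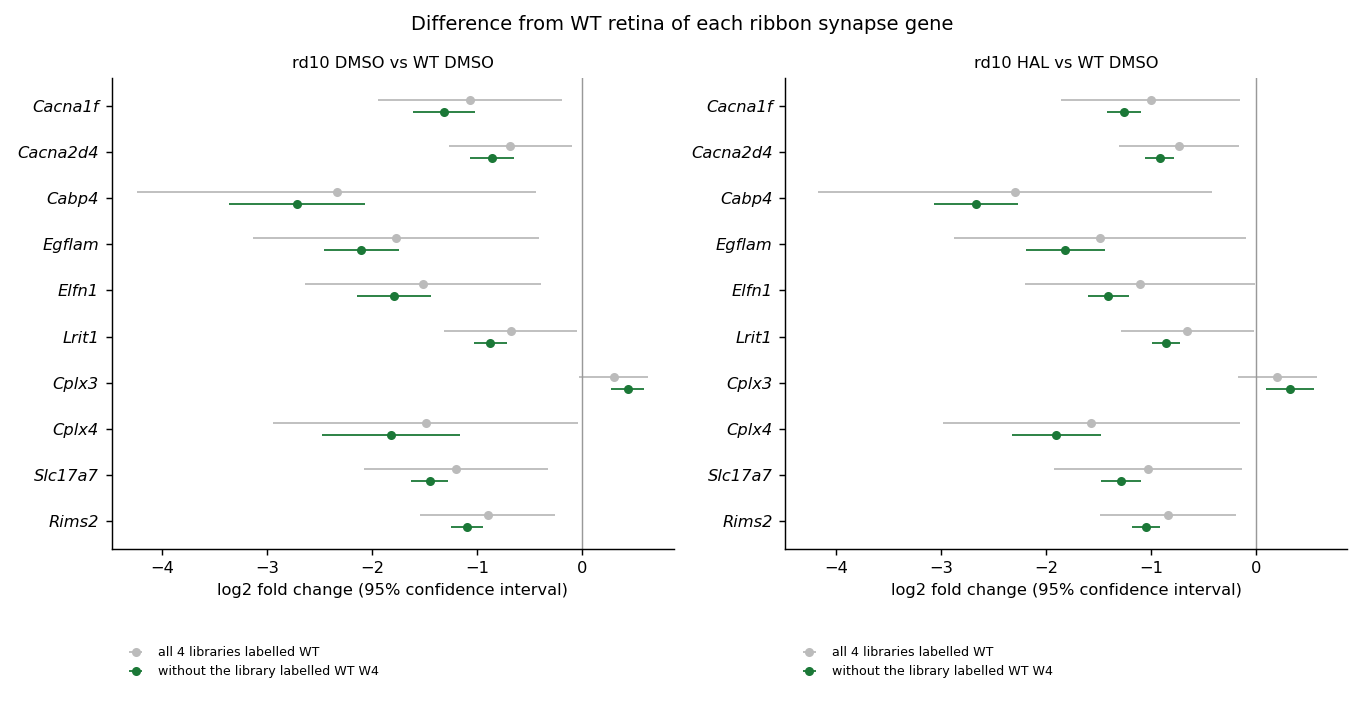
Log2 fold change of the 10 genes (horizontal axis, points with 95% confidence intervals from edgeR's quasi-likelihood fit) for rd10 DMSO against WT DMSO (left) and rd10 HAL against WT DMSO (right). Grey is the fit with all 4 libraries labelled WT and green the fit without W4; all green intervals lie away from 0, on the negative side for 9 genes and on the positive side for Cplx3.

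In rd10 HAL against the same WT libraries, which the DMSO comparison shares, the 10 genes had these values. Without W4 all 10 genes passed the test, 9 lower and Cplx3 higher, where 36.2% of 11699 genes were called lower and 35.7% higher. Cabp4 fell by 2.66 (SE 0.18), Cplx4 by 1.90 (SE 0.19), Egflam by 1.82 (SE 0.16), Elfn1 by 1.41 (SE 0.08) and Slc17a7 by 1.29 (SE 0.08). Cacna1f fell by 1.26, Rims2 by 1.05, Cacna2d4 by 0.92 and Lrit1 by 0.86, and Cplx3 rose by 0.33 (SE 0.10, adjusted p = 0.0167). Batch 1 libraries alone, without W4, leave H1 as the only HAL library. There all 10 kept their direction, with Cabp4 at -3.20, Cplx4 at -2.46, Egflam at -2.29, Cacna2d4 at -0.88 and Cplx3 at 0.56. With all 4 libraries labelled WT, none of the 10 passed edgeR's test (8 with adjusted p of 0.135 to 0.141, Elfn1 0.142 and Cplx3 0.332), where 0.00855% of genes were called lower and 0% higher, and DESeq2 called 7 of the 10, all lower, and 2221 genes (12.6% lower and 6.36% higher).

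Levels between genes can be compared only per length, so the estimated transcript counts were divided by transcript length and scaled to 1000000 per library. On that scale Slc17a7 was the highest of the 10 in W1 to W3, at 1521 ± 50.8 (SD, n = 3), followed by Cplx4 at 570.0 ± 28.2. Cabp4 (358 ± 19.4), Cplx3 (356 ± 26.2), Cacna1f (330.2 ± 20.7) and Cacna2d4 (329 ± 11.5) followed, and each pair of neighbours among these 4 overlapped between libraries. Rims2 (245 ± 7.05), Lrit1 (209 ± 3.59), Egflam (132 ± 11.2) and Elfn1 (58.5 ± 2.15) came last, each apart from its neighbours. In rd10 DMSO the order was Slc17a7 (631 ± 24), Cplx3 (582 ± 20.6), Cacna2d4 (248 ± 19.1), Cplx4 (196 ± 87.9), Cacna1f (154 ± 32.9), Lrit1 (139 ± 8.44), Rims2 (117 ± 6.45), Cabp4 (64.6 ± 25.4), Egflam (37.5 ± 8.38) and Elfn1 (20.2 ± 5.09). In that order Cacna2d4, Cplx4 and Cacna1f overlapped their neighbours, as did Cacna1f and Lrit1, and the others did not. The Cacna2d4 values rest on only 68.5% to 73.9% of its gene counts, the part on transcripts with a known length.

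In transcript estimates, 4 of the genes differed between W1 to W3 and rd10 in composition as well as in amount. Shares and ranks here are among transcripts with a known length, which hold only 68.5% to 73.9% of the Cacna2d4 gene counts. For the 9 genes with 2 or more transcripts, 8 of the 25 largest transcripts (up to 3 per gene) had a share of the gene's counts in W1 to W3 that did not overlap the 6 rd10 libraries, where 10.3% of 30048 such transcripts of all genes did not. They belonged to Cacna1f, Cacna2d4, Slc17a7 and Rims2, 4 of the 9 genes, where 20.6% of 10394 genes had at least 1. Among the Cacna2d4 transcripts with a known length, Cacna2d4-201 was at 45.8% to 46.0% in W1 to W3 and 35.2% to 45.4% in rd10. Cacna2d4-208 was at 21.6% to 22.8% and 24.5% to 30.5%. The size of the change among all Cacna2d4 counts was not worked out. Among those with a known length, the transcripts with the most counts were Cacna1f-201, Cacna2d4-201, Cabp4-201, Egflam-202, Elfn1-201, Lrit1-201, Cplx3-201, Cplx4-201, Slc17a7-201 and Rims2-204. Cabp4-201 (52.2% to 60.7%), Egflam-202 (85.6% to 95.2%) and Cplx3-201 (86.3% to 89.0%) had rd10 ranges that covered W1 to W3, Elfn1-201 and Cplx4-201 held 99.0% to 100% and 99.5% to 100% of the counts over W1 to W3 and rd10, and Lrit1 had 1 transcript.

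The GENCODE M21 annotation (GRCm38) holds a 21-base coding exon of Cacna1f at chrX:7627688-7627708, plus strand, exon 32 of 48 of transcript Cacna1f-202, which Cacna1f-201 lacks. Slc17a7-202 likewise holds a 75-base coding exon, the third of 13, at chr7:45169511-45169585, plus strand, which Slc17a7-201 lacks. Both lengths are whole codons, 7 and 25. The exons are shown because the shares of transcripts that hold them separated W1 to W3 from the rd10 libraries; capitals mark the exon, lower case the 20 bases of the transcript on each side.
Cacna1f exon: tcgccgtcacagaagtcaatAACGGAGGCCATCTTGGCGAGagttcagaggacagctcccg
Slc17a7 exon: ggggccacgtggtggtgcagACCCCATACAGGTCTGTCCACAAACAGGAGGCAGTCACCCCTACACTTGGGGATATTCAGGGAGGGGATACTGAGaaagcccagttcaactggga

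Among the 7 Cacna1f transcripts that span the exon, those holding all or part of it made up 77.3%, 70.8%, 83.1% and 45.4% of the abundance per length in W1 to W4, 32.5%, 39.1% and 60.2% in D1 to D3, and 36.5%, 42.0% and 47.3% in H1 to H3. The lowest of W1 to W3 was above the highest rd10 library, D3. Cacna1f-202 alone took 23.2% to 33.2% of the gene's counts in W1 to W3, 1.58% in W4 and 0.308% to 6.50% in the rd10 libraries, while Cacna1f-201 took 15.7% to 21.4%, 52.1% and 42.3% to 60.1%. Cacna1f-206 was the largest in W1 to W3, at 36.6% to 41.1%, and overlapped rd10, at 29.2% to 39.6%. For Slc17a7 the share with all or part of the 75-base exon was 55.3%, 55.8%, 59.3% and 26.8% in W1 to W4, 23.7%, 25.0% and 39.8% in D1 to D3, and 25.0%, 31.7% and 30.2% in H1 to H3. In Rims2 the short transcript Rims2-204 has 3685 bases, against 4581 for Rims2-206 and 4719 for Rims2-201. Rims2-204 had shares of 26.9%, 27.6% and 28.0% in W1 to W3, 42.7%, 40.5% and 42.7% in D1 to D3, and 41.9%, 39.7% and 39.7% in H1 to H3, with 38.7% in W4.

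For rd10 DMSO against W1 to W3 the differences were -33.1 percentage points for the Cacna1f exon, -27.3 for the Slc17a7 exon and 14.5 for Rims2-204. With W4 included, the differences were -25.2, -19.8 and 11.7. These are descriptions with no test, since the transcripts were chosen for this difference. Between rd10 HAL and rd10 DMSO they were -2.0, -0.52 and -1.53 percentage points (two-sided exact permutation p = 0.9, 1.0 and 0.2, where 3 libraries against 3 allow no p under 0.1, so that none could pass 0.05). Within batch 1 they were 0.70, 0.67 and 0.35, and within batch 2, against D3 alone, -15.5, -8.82 and -3.04. The shares rest on Kallisto's division of reads among overlapping transcripts, retained-intron models among them, and no read over the exons was counted directly. The Rims2 gene total includes the short transcript, so its fall joins transcripts that changed in share.

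**Figure D3:**
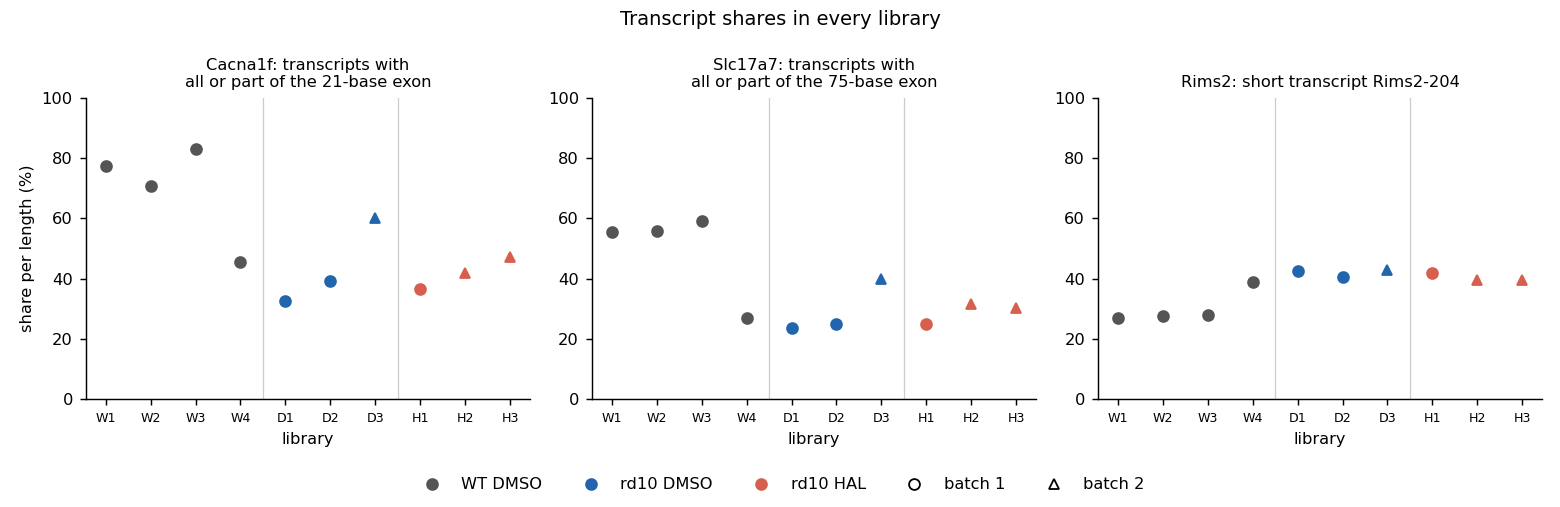
Share of transcript abundance per length (vertical axis, percent, 0 to 100) in every library (horizontal axis) for Cacna1f transcripts with all or part of the 21-base exon, Slc17a7 transcripts with all or part of the 75-base exon, and Rims2-204 among Rims2 transcripts. W1 to W3 lie above the rd10 libraries in the first 2 panels and below them in the last, W4 lies near the rd10 libraries, and D3 is the highest rd10 library in the first 2 panels.

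Sequence before the start of the gene was available for 6 of the 10 genes in the RefSeq promoter table (GRCm38.p6, 250 bases before to 50 after the start; Egflam has 2 starts, 7 entries in all). The core site of the photoreceptor factor CRX, TAATCC on either strand (GGATTA), was found in 1 of the 7 entries, that of Lrit1, 50 bases before the start, and in 7.06% of all 32851 promoters. The letters of part of the site of the rod factor NRL, TGCTGA on either strand, were found in Lrit1 and Cplx3 and in 19.5% of all promoters. The Lrit1 promoter (chr14:37054580-37054879, plus strand) is shown as that of a gene that fell and the Cplx3 promoter (chr9:57606232-57606531, minus strand) as that of the gene that rose, with capitals for the CRX letters.
Lrit1: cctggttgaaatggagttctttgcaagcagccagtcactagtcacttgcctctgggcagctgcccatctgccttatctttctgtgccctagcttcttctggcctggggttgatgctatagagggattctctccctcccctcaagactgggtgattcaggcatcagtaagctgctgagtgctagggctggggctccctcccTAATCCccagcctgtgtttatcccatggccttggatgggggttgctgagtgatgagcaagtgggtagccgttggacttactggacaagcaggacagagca
Cplx3: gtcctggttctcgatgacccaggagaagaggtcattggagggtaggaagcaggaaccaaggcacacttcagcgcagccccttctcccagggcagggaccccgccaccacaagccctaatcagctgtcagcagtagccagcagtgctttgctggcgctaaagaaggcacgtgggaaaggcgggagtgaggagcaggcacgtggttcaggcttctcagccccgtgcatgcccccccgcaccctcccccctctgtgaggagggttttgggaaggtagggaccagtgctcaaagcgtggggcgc

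Other genes of the synapse gave a setting for the 10. All lists were drawn up with earlier results of these data known, so differences between lists may reflect that choice. Of 35 other presynaptic genes, without W4, 10 fell and 20 rose in rd10 DMSO and 5 did not pass the test, with a median of 0.35, beside the 29.9% of all genes called lower and 32.3% called higher in that fit. Unc119, a ribbon-associated protein of photoreceptors, fell by 2.21 (SE 0.13) and Lrit2, a relative of Lrit1, stood at -1.95 (SE 0.07). Nrxn3, a presynaptic adhesion protein, rose by 1.09 (SE 0.08) and Erc1, an active-zone protein, by 1.08 (SE 0.08). Ctbp2, whose RIBEYE form builds the ribbon but whose other form is made in many cells, fell by 0.27 (SE 0.07), and Bsn, the ribbon anchor bassoon, rose by 0.43 (SE 0.13). With all 4 libraries labelled WT none of the 35 passed edgeR's test.

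On the bipolar side, 8 of 12 ON bipolar postsynaptic genes rose, 2 fell and 2 did not pass the test, with a median of 0.65. Trpm1, the channel that mGluR6 closes, rose by 1.10 (SE 0.06), Nyx by 1.05 (SE 0.18) and Grm6, mGluR6 itself, by 1.04 (SE 0.16). The 2 that fell were Gnb5 (-1.51, SE 0.21) and Lrit3 (-1.17, SE 0.16). Which cells express the genes of this list was not measured here. All 19 rod outer segment genes fell, with a median of -3.11. Guca1b, the calcium sensor of guanylate cyclase, was the lowest at -4.47 (SE 0.33), while Gucy2e (-2.53) and Sag (-2.40) fell least. Among markers of other cells in the same fit, 8 of 10 bipolar, 6 of 6 Muller glia (median 0.76), 4 of 4 horizontal (1.20), 4 of 4 microglia (2.36), 5 of 6 amacrine and 5 of 6 ganglion markers rose. All 3 blood markers fell, and none of 4 pigment epithelium or 2 lens markers passed the test. Of 10 cone markers 3 fell, 3 rose and 4 did not pass, near the shares over all genes. In rd10 HAL against WT without W4, 36.2% of all genes were called lower and 35.7% higher. There all 19 rod outer segment genes fell. Of the markers, 9 of 10 bipolar, 5 of 6 Muller glia, 4 of 4 horizontal, 4 of 4 microglia, 6 of 6 amacrine and 6 of 6 ganglion rose. Of 10 cone markers 1 fell and 4 rose. The part of other cells in these differences was not tested. In rd10 DMSO with all 4 libraries labelled WT, none in these lists passed edgeR's test, and the medians were 0.50 for the ON bipolar list and -2.74 for the rod outer segment list.

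**Figure D4:**
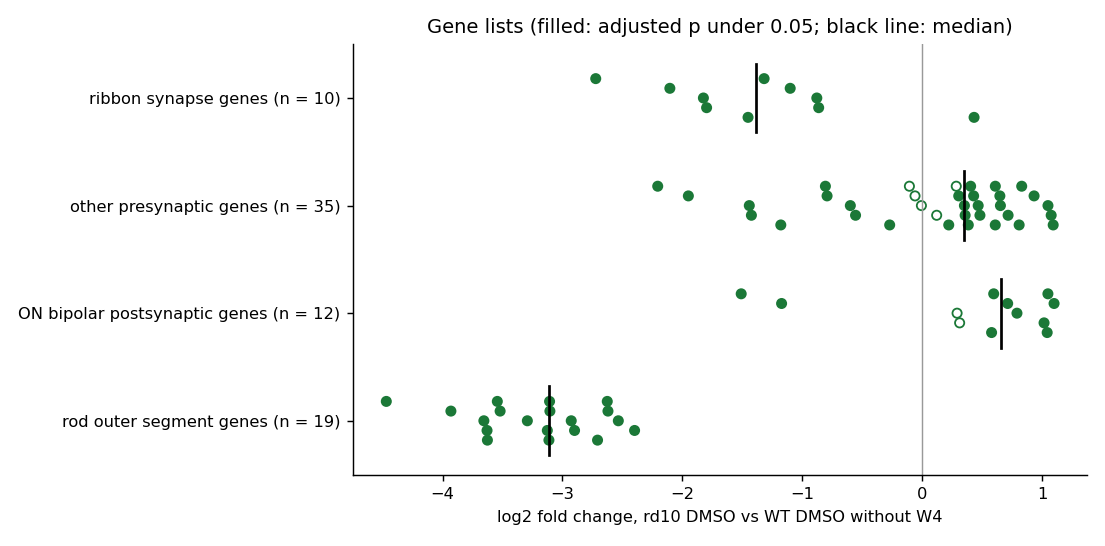
Log2 fold change in rd10 DMSO against WT DMSO without W4 (horizontal axis) for each gene of the 4 lists (vertical axis; points spread vertically for legibility). Filled points passed an adjusted p of 0.05 and black lines are medians, at -1.39 for the 10 ribbon synapse genes, 0.35 for other presynaptic genes, 0.65 for ON bipolar postsynaptic genes and -3.11 for rod outer segment genes. The lists were drawn up with earlier results of these data known.

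The comparison of rd10 HAL with rd10 DMSO asks what the drug changed in the degenerating retina. None of the 10 genes passed the test, and neither did any of 11692 genes (0% lower and 0% higher). Unadjusted p-values were under 0.05 for 0 of the 10 and for 557 genes, and DESeq2 called 0 of the 10 and 3 genes (0% lower and 0.0257% higher). Elfn1 had the largest difference, 0.40 (95% confidence interval -0.0018 to 0.80, edgeR adjusted p = 0.883), with levels of 39.0 ± 4.77 CPM with HAL and 29.4 ± 6.51 with DMSO (SD, n = 3 each). Egflam was at 0.29 (-0.20 to 0.79), Slc17a7 at 0.17 (-0.02 to 0.36) and the other 7 between -0.10 and 0.07. When each library was left out in turn, Elfn1 ran from 0.24 (without D3) to 0.50 (without D2), Egflam from 0.18 (without H2) to 0.48 (without H1) and Slc17a7 from 0.090 (without H2) to 0.21 (without H3), none of them passing the test. The intervals were narrow for Lrit1 (-0.14 to 0.20) and Rims2 (-0.10 to 0.22) and wide for Cabp4 (-0.69 to 0.81) and Cplx4 (-0.84 to 0.70). All HAL libraries were above all DMSO libraries for Elfn1 and Slc17a7, 2 of the 10 genes, where 13.1% of all genes had groups that did not overlap in one direction or the other.

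None of the 10 passed the test of an interaction of treatment and batch, which rests on 1 HAL library in batch 1 and 1 DMSO library in batch 2 and was -0.015 for Lrit1 and 0.014 for Rims2. Over all genes 0.00855% were called negative in that test and 0.41% positive (1 and 48 of 11701). In batch 1, where H1 stands against D1 and D2, Elfn1 differed by 0.03, and in batch 2, where H2 and H3 stand against D3 alone, by 0.93 (interaction 0.90, SE 0.13, edgeR adjusted p = 0.0525). Elfn1 has a GC content of 57.8%, at the 90.0th percentile of the table, just below the 1149 genes with the highest GC content. Those genes differed in D3 from D1 and D2 by a median of -0.38 on the log2 scale, beside -0.60 for Elfn1. Slc17a7, which is among them, differed in D3 by -0.12. The part of GC content in these differences was not tested. With a term for batch the Elfn1 difference was 0.46 (95% confidence interval 0.022 to 0.90, unadjusted p = 0.0418, adjusted p = 0.288 from edgeR), and in that fit 3 of the 10 and 1943 genes had an unadjusted p under 0.05, with 0 genes called. After an adjustment for GC content within each library, the Elfn1 difference was 0.31 (unadjusted p = 0.0584, from edgeR's test). Slc17a7, at a GC content of 57.9%, differed by 0.05 in batch 1 and 0.29 in batch 2, and by 0.05 after the adjustment. Cplx4 differed by -0.21 in batch 1 and -0.46 in batch 2, and with a term for batch by -0.33 (SE 0.07, unadjusted p = 0.0024, adjusted p = 0.269 from edgeR). Cabp4 differed by -0.07 and -0.34 within batches and by -0.21 with a term for batch (SE 0.08, adjusted p = 0.274 from edgeR). Egflam differed by -0.007 in batch 1 and 0.18 in batch 2, and by 0.08 with a term for batch (95% confidence interval -0.09 to 0.25). In that fit 14 of 19 rod outer segment genes were negative, with a median of -0.22, and 9 of 10 rod markers, with a median of -0.23, while the medians were 0.15 and 0.12 without the term. Median differences of the other marker lists with the term ran from -0.54 for 4 pigment epithelium markers, all negative, to 0.80 for 3 lens markers. None of the genes tested in these lists passed in either fit, and the lens markers were not tested in the fit without the term. The part of these cells in the treatment differences was not tested.

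The batch itself separated some of the 10 genes. In the 6 rd10 libraries, with treatment in the model, Cplx4 was higher in batch 2 by 0.91 (SE 0.07, edgeR adjusted p = 0.0018), Cabp4 by 0.88 (SE 0.08, adjusted p = 0.0024) and Egflam by 0.58 (SE 0.07, adjusted p = 0.0091). These 3 of the 10 were called higher and none lower, where 3.09% of 11698 genes were called higher and 1.55% lower. The other 7 lay between -0.20 for Cplx3 and 0.17 for Cacna1f, and without H1 Elfn1 was called lower in batch 2 as well (-0.60, edgeR adjusted p = 0.0088). In that fit 13.3% of genes were called lower and 9.24% higher, and the Elfn1 value is the difference of D3 alone from D1 and D2, with D3 assumed to vary like the other libraries. Batch 2 was all above batch 1 for 5 of the 10 (Cabp4, Egflam, Lrit1, Cplx4 and Rims2), where 14.6% of all genes were. All 19 rod outer segment genes lay higher in batch 2 and 18 passed the test (Guca1b, at 1.20, had an edgeR adjusted p = 0.0581), with a median of 1.14 beside 0.13 for the 10 genes and -0.01 for all genes. In a fit that included the 4 libraries labelled WT, none of the 10 passed and neither did any of 11701 genes. There Cplx4 was at 0.91, Cabp4 at 0.89 and Egflam at 0.58 (edgeR adjusted p = 0.840, 0.868 and 0.880). Markers of other cells moved as well, 2 of 10 cone markers being called higher in batch 2 and 2 of 6 Muller glia, 2 of 6 amacrine and 2 of 10 bipolar markers lower. All 4 pigment epithelium (median -0.69), 4 horizontal (-0.39), 4 microglia (-0.24) and 6 ganglion markers (-0.11) were negative with none called. Lens and blood markers, none of them called, also differed by library, with a mean log2 CPM of 2.67 in H2 for the 3 of 5 lens genes in the table and 0.85 in D3 against -2.80 to -2.26 in the other rd10 libraries, and for the 3 of 5 blood genes of 4.99 in H2 and 4.68 in H3 against 1.96 to 3.33. The part of these cells in the batch difference was not tested.

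**Figure D5:**
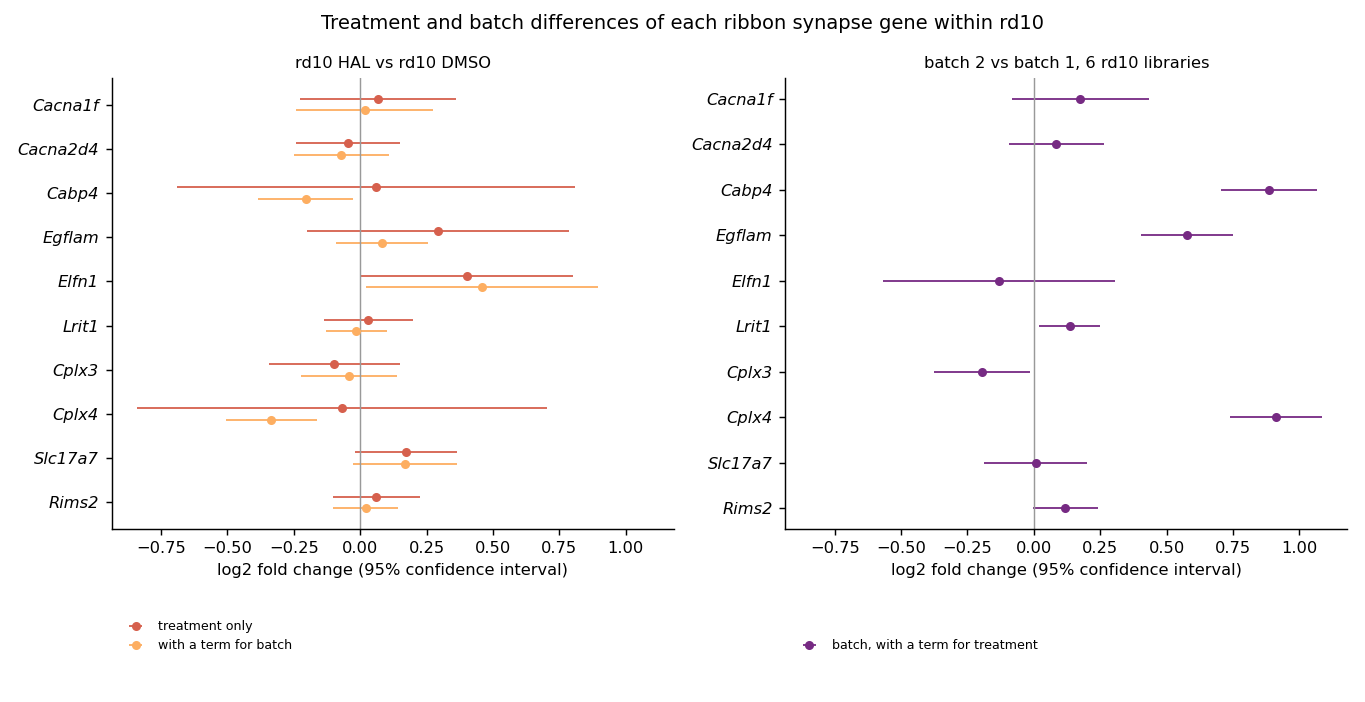
Log2 fold change (horizontal axis, points with 95% confidence intervals from edgeR's quasi-likelihood fit) of the 10 genes for rd10 HAL against rd10 DMSO, without and with a term for batch (left), and for batch 2 against batch 1 in the 6 rd10 libraries (right). The treatment intervals reach 0 for every gene without the batch term, and Cplx4, Cabp4 and Egflam stand at 0.91, 0.88 and 0.58 on the right.

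The genes whose levels moved most like each of the 10 were sought among 11698 genes by the root mean square difference of log2 CPM, centred over the 10 libraries. For the channel genes they were Kif21b and Nucb2 (Cacna1f, 0.064 and 0.079), Kdm3b and Stk11ip (Cacna2d4, 0.045 and 0.054), and Lbhd1 and A930006I01Rik (Cabp4, 0.093 and 0.099). For the genes of the contact with the bipolar cell they were Glmn and 6530402F18Rik (Egflam, 0.090 and 0.091), A930004D18Rik (Elfn1, 0.14), and Abcg4 and Mpped2 (Lrit1, 0.045 and 0.048). For the release genes they were Wdr1 and a gene with no symbol (Cplx3, 0.058 and 0.059), Slc31a2 and Rgs9 (Cplx4, 0.073 and 0.079), Ppp2r2b and Stk35 (Slc17a7, 0.064 and 0.066), and Cep85 and Aff1 (Rims2, 0.042 and 0.056). Rgs9, near Cplx4 in pattern, speeds the end of the photoreceptor light response. None of the 10 was the nearest of another.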

How the data were processed

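Polyadenylated RNA of 10 female mouse retinas was sequenced from stranded libraries. The authors quantified reads with Kallisto against Ensembl release 115 (GRCm39), summarised them to genes with tximport, and deposited estimated counts per gene and per transcript together with normalized CPM values, a signal scaled to library size. The deposited table of the authors' own comparisons holds their fold changes and p-values and was not used. Gene counts were rounded, filtered with filterByExpr, normalized by TMM and tested with edgeR 4.0.16 (glmQLFit, glmQLFTest) in R 4.3.3, each comparison on its own groups, with Benjamini-Hochberg adjustment over all genes tested and a threshold of 0.05; the batch comparison carried a term for treatment. Log2 CPM used a prior count of 2. DESeq2 1.42.0, limma-voom 3.58.1, other scalings and filters, batch terms, a GC adjustment (lowess over GC content, known for 98.1% of genes) and leaving out each library were tried as alternatives, those without W4 combined with another choice and the GC adjustment being chosen after seeing the data. Figures were drawn with matplotlib 3.10.9. Libraries held 15512212 to 38160436 counts, and all 10 genes had at least 355 counts in every library. Counts of libraries of one group differed by more than sampling noise in every pair. On simulated data for rd10 HAL against rd10 DMSO, with 200 of 11698 genes changed 2-fold, 99.0% were recovered, and with 1.5-fold changes in 11697 genes 47.5%. The simulation gave every gene the same spread beyond sampling and no batch difference. Its shares therefore do not hold for genes with a wider spread, such as Cabp4 (SE 0.32) and Cplx4 (SE 0.33) in that comparison. Transcript lengths, exons and GC content came from GENCODE M21 (GRCm38) by transcript identifier, and promoters from RefSeq (GRCm38.p6), builds that differ from that of the counts. Transcripts absent from GENCODE M21 were left out of the transcript shares and ranks. The 10 genes and the other lists were chosen with earlier results of these data known. The text names all 10 genes, and in each other list the 2 called genes with the lowest and the 2 with the highest fold change in rd10 DMSO against WT DMSO without W4, besides Ctbp2, Bsn, Grm6, Trpm1 and Pde6b, as well as the 2 genes closest in pattern and the transcript with the most counts for each of the 10; the other transcripts named were chosen after their values were seen. The result for 1 gene of the rod outer segment list and for 1 gene close in pattern is not reported here.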

Additional observations from a re-analysis of the deposited data

Results flagged for a closer look

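The library labelled WT W4 stood apart from the other 3 WT libraries in 9 of the 10 genes, where the distance from W4 to its closest neighbour, divided by the whole range of the group (log2 CPM), was over Dixon's 95% critical value for 4 samples. In 27.6% of all 11702 genes 1 of the 4 WT libraries stood apart by the same measure. The ratio was 0.929 for Cacna1f, 0.919 for Cacna2d4, 0.956 for Cabp4, 0.911 for Egflam, 0.954 for Elfn1, 0.953 for Lrit1, 0.947 for Cplx4, 0.946 for Slc17a7 and 0.921 for Rims2. Cplx3, at 0.694, did not pass it. Chance alone passes it in about 1 group of 20, and the 10 genes are not independent, since they come from the same library.

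Cplx3 differed between HAL and DMSO by 0.12 on the log2 scale in batch 1 and by -0.20 in batch 2, a difference of -0.32, with every library of each batch on its own side. The test of the interaction of treatment and batch in edgeR gave -0.32 (SE 0.09, adjusted p = 0.152), and batch 1 holds 1 HAL library and batch 2 holds 1 DMSO library.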

How the results depend on the processing

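In both comparisons with WT, each of the 10 genes kept its direction under every alternative run, and the calls depended on the library labelled WT W4 and, with W4 kept, on the test. In rd10 DMSO against WT DMSO the genes called went from 0 to 7280, with 0 to 10 of the 10, when each library was left out in turn, all of them without W4. DESeq2 called 589 genes and 5 of the 10. Without W4, DESeq2 called 7336 genes, limma-voom 7388, batch 1 libraries 8460, library size alone 7440, RLE size factors 7271 and the GC adjustment 7894, with 10 of the 10 each time. In rd10 HAL against WT DMSO the range was 0 to 8408 genes and 0 to 10 of the 10 with each library left out. DESeq2 called 2221 genes and 7 of the 10, and limma-voom, the fit of 10 libraries, the batch term and batch 1 libraries 0 genes. Without W4, DESeq2 called 8171, limma-voom 8421, batch 1 libraries 7625 (with 1 HAL library, assumed to vary like the others), library size alone 8414, RLE size factors 8377 and the GC adjustment 8697, with 10 of the 10 each time. Scaling by library size alone moved the median of all genes in rd10 DMSO against WT DMSO without W4 from -0.01 to 0.19, and the split of lower and higher calls from 3502 and 3778 to 2031 and 5409; for rd10 HAL it went from 4231 and 4177 to 2447 and 5967. The cause of the shift was not tested.

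In rd10 HAL against rd10 DMSO, DESeq2 called 3 genes and leaving out each library 0 to 7, with 0 of the 10 under every alternative run. A term for batch turned Cabp4 to -0.21 and Lrit1 to -0.014. With each library left out, Cacna1f ran from -0.055 to 0.18, Cacna2d4 from -0.11 to 0.032, Cabp4 from -0.12 to 0.48, Lrit1 from -0.0086 to 0.084, Cplx3 from -0.23 (without H1) to -0.020 (without H3), Rims2 from 0.023 (without H2) to 0.10 (without D3) and Cplx4 from -0.26 to 0.37, the last at its highest without D3. For batch 2 against batch 1, DESeq2 called 1419 genes, the fit without treatment 218, and the fit of 10 libraries 0 genes and 0 of the 10. Leaving out each library gave 91 genes (without D3) to 2638 (without H1), and 3 to 4 of the 10. Elfn1 was at 0.079 without the treatment term and at 0.031 with the GC adjustment, against -0.13. With each library left out, Elfn1 ran from -0.60 to 0.30, Cacna2d4 from -0.038 to 0.21 and Slc17a7 from -0.12 to 0.13. Levels of the 10 genes in the deposited CPM differed from those given here by less than 1 SD in all 30 group means. No paired analysis was possible because the labels pair no mice across groups and the replicate numbers follow the order of the samples. With 3 libraries against 3, 47.5% of simulated 1.5-fold treatment changes were recovered, so differences of that size can be missed. The simulation held no batch difference, so this share does not cover genes that differ by batch. Whether more depth would help was not tested.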
